A study of Homo sapiens with 2 samples.

Results

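Genes for the hexokinases, the voltage-dependent anion channels and the other proteins tied to the mitochondrial permeability transition pore were followed in U251, a long-established line of human glioblastoma cells. The set was chosen by name and held 10 genes: HK1, HK2, VDAC1, VDAC2, VDAC3, PPIF, SLC25A4, SLC25A5, SLC25A6 and TSPO. Every probe set whose only gene symbol in the platform annotation was one of these was taken, which gave 10 probe sets for 9 genes, among 33297 probe sets and 18417 named genes in all. VDAC2 had 2 probe sets and the others had 1 each. SLC25A6, the translocase known as ANT3, was not among the single-symbol probe sets and is not analysed here. One array came from cells given the solvent DMSO and 1 from cells given 5 µM G-TPP, both for 6 h in high-glucose medium. G-TPP is a Gamitrinib, an Hsp90 inhibitor of the geldanamycin type joined to triphenylphosphonium, a lipophilic cation that carries it into mitochondria, and the study asked how genes of mitochondria respond to inhibition of the Hsp90 chaperones there. With 1 array per condition no test was possible, so the values below carry neither a standard error nor a p-value, and every direction given is that of this pair of arrays.

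Hexokinases catalyse the first step of glycolysis, and HK1 and HK2 can dock on the outer mitochondrial membrane, where they bind VDAC, the channel through which ATP, ADP and other metabolites cross that membrane. In the inner membrane the adenine nucleotide translocases exchange ADP for ATP. Cyclophilin D, a prolyl isomerase of the matrix encoded by PPIF, favours opening of the permeability transition pore, whose opening collapses the membrane potential and can kill the cell. TRAP1, the mitochondrial Hsp90 and an intended target of Gamitrinibs, is known to bind cyclophilin D and to restrain the pore. VDAC, the translocases and TSPO, an outer membrane protein that binds cholesterol and porphyrins, belonged to early models of the pore, and later genetic work questioned that they form it.

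None of the 9 measured genes reached a 2-fold difference in either direction, where 3.35% of the 11091 genes above the brightness filter did so (a gene passed that filter if its brighter array reached 239.2, the median of the brighter value over all probe sets). None reached 1.5-fold either, where 10.6% of those genes did. With 9 genes both counts are near the background share and say nothing particular to the group. Their log2 differences, G-TPP minus DMSO, ran from -0.43 to 0.05 with a median of -0.08, against a median of -0.04 for all genes above the filter. The gap depends on brightness: with a stricter filter at the 75th percentile the medians were -0.12 for the 8 members left and 0.02 for all genes. Of the 9 genes 7 were below 0 and 2 above, and 55.9% of all genes above the filter were below 0. In this bulk RNA, fewer cells of a kind and less RNA per cell cannot be told apart.

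**Figure D1:**
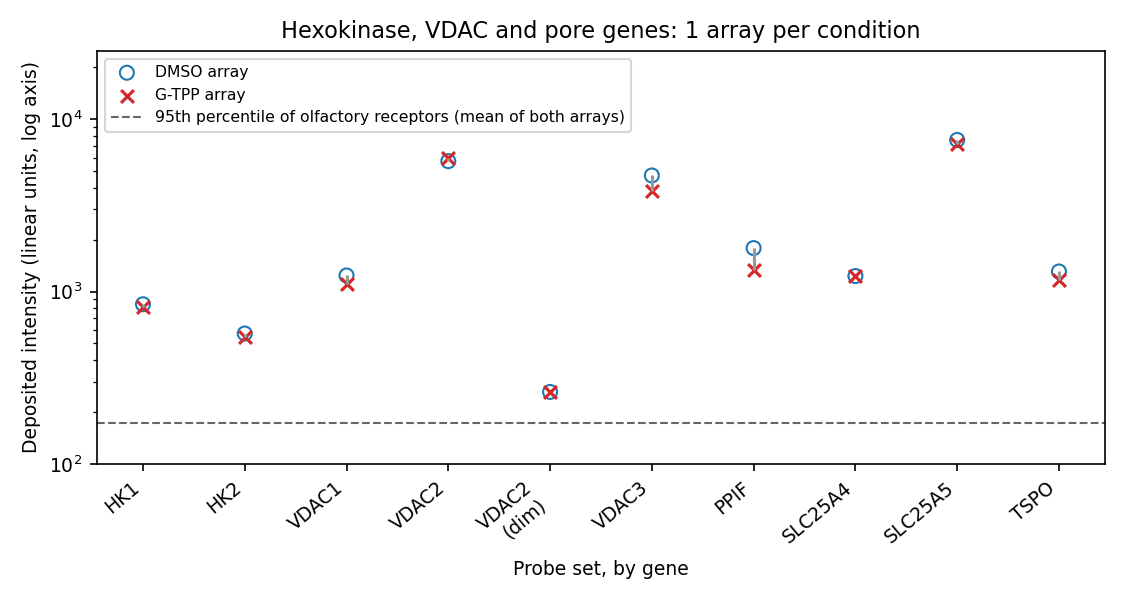
Deposited intensity (log axis) of each of the 10 member probe sets with DMSO (open circles) and with G-TPP (crosses), with 1 array per condition and no error bars. The symbols of most genes nearly coincide, PPIF (1788 and 1331) and VDAC3 (4720 and 3842) are visibly apart, and the dim VDAC2 probe set has the same value in both arrays; heights of different probe sets are not comparable with each other.

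Promoter windows of 3 genes are printed because they show the start of the gene that differed most (PPIF) and matches to stress or glycolysis elements in genes that hardly differed (HK1, HK2). Each runs from 250 bases before to 50 bases after a RefSeq start (assembly GRCh38.p14), 5′ to 3′ on the strand of the gene. Capitals mark matches to the elements searched. The PPIF window is chr10:79347219-79347518 (plus strand), the HK1 window at its most upstream start is chr10:69269750-69270049 (plus strand), and the HK2 window at its downstream start is chr2:74834920-74835219 (plus strand).
PPIF: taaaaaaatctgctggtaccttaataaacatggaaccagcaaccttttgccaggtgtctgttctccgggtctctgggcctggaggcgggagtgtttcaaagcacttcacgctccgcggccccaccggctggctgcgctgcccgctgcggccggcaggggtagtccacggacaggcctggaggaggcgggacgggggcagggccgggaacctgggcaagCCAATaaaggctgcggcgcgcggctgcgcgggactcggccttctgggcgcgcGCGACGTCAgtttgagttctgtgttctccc
HK1: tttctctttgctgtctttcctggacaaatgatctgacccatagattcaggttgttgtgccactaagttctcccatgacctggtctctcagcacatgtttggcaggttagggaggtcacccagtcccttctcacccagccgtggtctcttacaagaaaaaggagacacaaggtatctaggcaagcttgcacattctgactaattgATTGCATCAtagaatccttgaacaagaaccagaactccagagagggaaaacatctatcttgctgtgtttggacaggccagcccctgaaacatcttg
HK2: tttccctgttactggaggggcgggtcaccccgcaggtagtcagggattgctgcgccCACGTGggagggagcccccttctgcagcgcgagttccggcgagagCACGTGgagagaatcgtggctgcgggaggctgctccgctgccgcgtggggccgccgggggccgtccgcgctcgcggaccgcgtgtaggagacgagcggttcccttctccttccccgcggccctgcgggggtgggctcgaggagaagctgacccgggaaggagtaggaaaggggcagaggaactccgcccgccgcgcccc

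Each window was searched on both strands for 10 elements. Windows were found for 9 of the 10 genes, and VDAC3, which had none, was not searched. There were 22 windows in all, 7 of them of HK1, and the shared X and Y copy of SLC25A6 was counted once. The composite element of ATF4 and CHOP, TGATGNAAN, occurred in HK1 alone among the 9 genes, beginning 46 bases before the start in the window printed above and again in a second HK1 window that overlaps it. It is held by 3.61% of all 35115 windows and 4.45% of the 27305 genes that have one. The E-box CACGTG, a binding site of MYC and of other factors, occurred in HK2, at 194 and 149 bases before the start, and in VDAC2, at 100 bases before the start of 1 window, and in 7.26% of all windows (8.77% of genes). TGACNNNGC, the core of the antioxidant response element, was found in HK1, PPIF and SLC25A5 and in 13.3% of all windows (16.1% of genes). The PPIF match begins at base 21 after the start. CCAAT was found in HK1, HK2, VDAC1, PPIF, SLC25A4 and SLC25A6 and in 34.6% of all windows (39.7% of genes), and in PPIF it begins 32 bases before the start. TATAAA was found in SLC25A5 and in 11.5% of all windows (14.0% of genes). The remaining 5 elements gave no match in these windows. They were the endoplasmic reticulum stress element, the heat shock element, the element of nuclear respiratory factor 1, the cyclic AMP element TGACGTCA and the ETS element CCGGAAGT, held by 0.0769%, 0.490%, 1.24%, 1.85% and 4.14% of all windows in that order. The searched elements overlap where the stress element begins with CCAAT. A match describes letters in a window, not a bound site.

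Both hexokinase genes were nearly level. HK1, the widely expressed hexokinase, read 843.7 with DMSO and 815.2 with G-TPP in deposited intensity, a log2 difference of -0.05. HK2, the isoform that many tumours raise, had 570.7 with DMSO and 547.2 with G-TPP, a log2 difference of -0.06. The G-TPP value was 96.6% of the DMSO value for HK1 and 95.9% for HK2, and both differences lay near the middle of all genes above the filter, with 49.0% and 47.4% of them lower. The ATF4 and CHOP element lay only in the overlapping windows at the most upstream HK1 starts. The HK1 windows further downstream held no match to it. The probe set of HK1 was level, but it does not tell the starts of the gene apart, and use of the upstream starts in these cells was not tested. For scale, DDIT3, which encodes CHOP, went from 371.6 to 3104. It stands in a list of 8 ATF4 and CHOP targets whose high values were known when the list was chosen, so their number past 2-fold is no evidence.

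Other genes of glucose phosphorylation also stayed below 2-fold. HK3, the glucokinase regulator GCKR and HKDC1 were below the brightness filter. The 3 measured above it ran from -0.13 for G6PC3, a glucose-6-phosphatase, to 0.13 for TIGAR, a fructose bisphosphatase, on the log2 scale. Among 7 kinases and phosphatases that act on the docking of hexokinase to mitochondria, the median log2 difference was -0.17, with 5 below 0 and none at 2-fold. AKT2, a kinase that promotes the docking, was lowest at 1926 with DMSO and 1478 with G-TPP (-0.38 on the log2 scale). GSK3B, whose kinase activity loosens it, was highest at 1026 and 1328 (0.37).

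The 3 VDAC genes ran from -0.30 to 0.05 in log2 difference, with VDAC2 read by its brighter probe set. VDAC1, the isoform most studied as a hexokinase dock, had 1240 with DMSO and 1109 with G-TPP, a log2 difference of -0.16. VDAC2, which also holds BAK at the outer membrane, had 5713 with DMSO and 5925 with G-TPP by its brighter probe set, a log2 difference of 0.05. VDAC3, the least conductive isoform, had 4720 with DMSO and 3842 with G-TPP, a log2 difference of -0.30 or 1.23-fold lower. From VDAC3 to VDAC2 the differences spanned 0.35 on the log2 scale. As a guide to array noise, 328 genes with 2 probe sets each above the filter were used, and the log2 differences within a gene had a pooled standard deviation of 0.17. That scatter leaves out the spread between cultures, for which there are no data here. VDAC3 lay further from 0 than 1 such standard deviation, while VDAC2 lay well within it and VDAC1 just within it. This mark is a guide and no test: 33.5% of all genes above the filter lay at least as far from 0 as VDAC3. Among all genes above the filter 15.7% were lower than VDAC3, and among the 555 genes of like brightness 7.03% were.

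VDAC2 needs care in reading. Its dimmer probe set (7928524) had the same deposited value in both arrays, 261.3, as had 334 of the 33297 probe sets. Probe set numbers of this platform follow the genome, and 97.5% of neighbouring named probe sets lay on the same chromosome. The 10 nearest named neighbours of the dim probe set were all on chromosome 10, where VDAC2 lies, whereas those of the bright probe set (8042335) were all on chromosome 2, with CEP68 and MEIS1 next to it. RefSeq places VDAC2P5, a pseudogene copy of VDAC2, between CEP68 and MEIS1. The annotation names both probe sets VDAC2, and which transcripts the bright one reads was not tested. For the other 8 genes all 10 neighbours lay on the chromosome of the gene itself. RefSeq lists 13 pseudogenes named for VDAC1, 5 for VDAC2, 1 for VDAC3, 9 for SLC25A5 and 1 for HK2, and near-identical copies can share probes, so these values are less certain than those of PPIF, HK1, SLC25A4 and TSPO, for which none is listed by that name.

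Partners of VDAC at contacts with the endoplasmic reticulum (ER) pointed both ways. Over 9 genes the median log2 difference was -0.06, with 3 above 0 and 6 below. ITPR1, an ER calcium channel linked to VDAC through mortalin, was the 1 gene at 2-fold, with an intensity that went from 228.8 to 574.9 (2.51-fold). PACS2, a sorting protein of these contacts, was lowest at -0.33 by its brighter probe set and -0.13 by the other. In the BCL2 family, whose members BAX and BAK act beside VDAC on the outer membrane, the median was -0.05 over 10 genes, with 4 above 0 and 6 below. PMAIP1 (NOXA, a BH3-only activator of cell death) went from 1028 to 3041, a factor of 2.96, and BBC3, which encodes PUMA, was lowest at -0.29.

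PPIF was the member with the lowest difference. It read 1788 with DMSO and 1331 with G-TPP, a log2 difference of -0.43 or 1.34-fold lower. The value with G-TPP was thus 74.5% of that with DMSO. Among genes above the filter 7.28% were lower, and among the 554 genes of like brightness 5.05% were lower. PPIF was the 1 member at least 1.3-fold lower, a size chosen after the values were seen that 9.46% of all genes above the filter reached in that direction, so 1 of 9 is near the background.

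**Figure D2:**
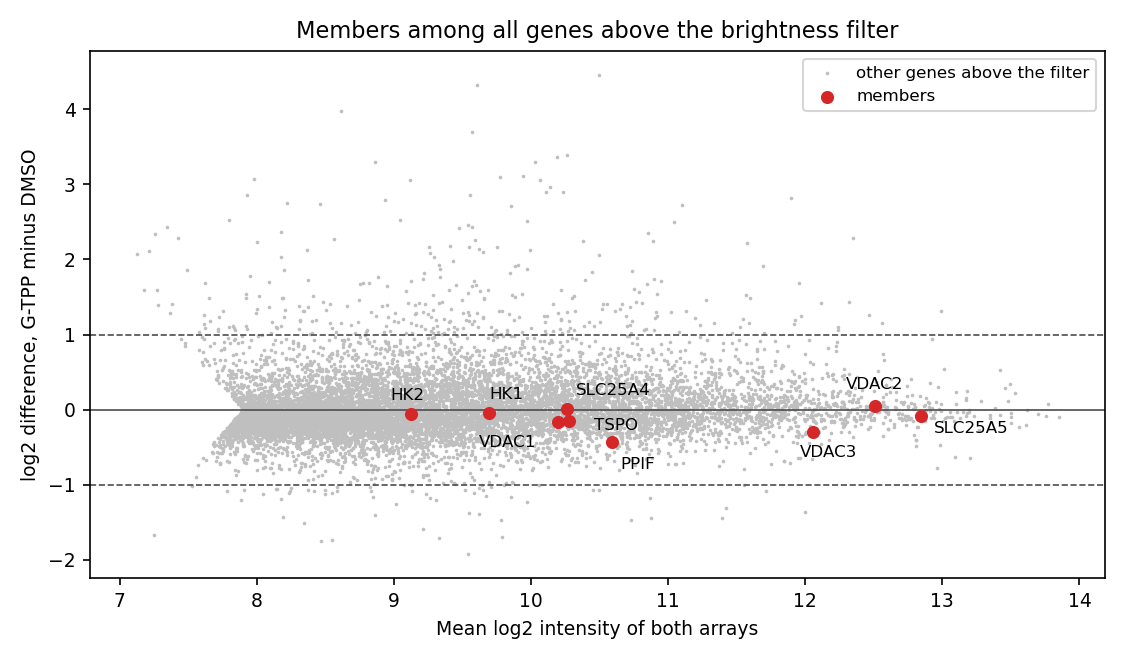
Log2 difference, G-TPP minus DMSO, against the mean log2 intensity of both arrays for 11091 genes above the filter (grey) and the 9 members (red); dashed lines mark 2-fold. All members lie between the dashed lines, PPIF lowest at -0.43 and VDAC2 highest at 0.05, while many grey points exceed 2-fold on the higher side.

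The other cyclophilins pointed both ways. Over 15 genes their median log2 difference was 0.16, with 8 above 0 and 7 below. PPID was the 1 cyclophilin gene at 2-fold, going from 553.2 to 1369 (2.48-fold). Despite its symbol PPID does not encode cyclophilin D: it encodes cyclophilin 40, a cytosolic cochaperone of Hsp90. PPIA, the abundant cyclophilin A, was lowest at 546.6 and 444.1 (-0.30 on the log2 scale).

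TRAP1 itself, which binds cyclophilin D, had 2850 with DMSO and 2297 with G-TPP by its brighter probe set (-0.31 on the log2 scale) and 231.3 and 240.5 by the other (0.06). In the list of Hsp90 chaperones and mitochondrial partners of cyclophilin D, 5 of 7 genes were above 0, the median was 0.24 and none reached 2-fold. Among all genes above the filter 55.9% were below 0. The 2 below 0 in the list were TRAP1, the mitochondrial Hsp90, and SIRT3. The other Hsp90 genes of the list were all above 0, so its median does not describe the mitochondrial partners alone. SIRT3, the mitochondrial deacetylase that acts on cyclophilin D, was lowest at -0.34, and CLU, the chaperone clusterin, was highest at 0.65.

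The measured translocase genes were level. SLC25A4, the ANT1 of heart and muscle, had 1231 with DMSO and 1233 with G-TPP, a log2 difference of 0.00 that fell on the other side of 0 after lowess centring (-0.02) and quantile normalization (-0.05). SLC25A5, the ANT2 of growing cells, had 7588 with DMSO and 7159 with G-TPP, a log2 difference of -0.08. Both lay within the scatter between probe sets of a gene. SLC25A31, the translocase of testis, was below the filter, at 38.1 and 31.7.

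In the list of ATP synthase genes, carriers and other genes proposed for the pore, 11 of 12 were below 0. Among all genes above the filter 55.9% were below 0. The median log2 difference of the list was -0.13 and none of its genes reached 2-fold. Most of the 11, and the median of the list, lay closer to 0 than the scatter of 0.17 between probe sets of a gene. The count of signs takes no account of size, and a joint decrease of the list was not tested. ATP5F1A, the alpha subunit of ATP synthase, was lowest at 1891 with DMSO and 1347 with G-TPP (-0.49 on the log2 scale). ATP5PO, the OSCP subunit to which cyclophilin D binds, had 1485 and 1246 (-0.25). AFG3L2, a subunit of an inner membrane protease, was the 1 gene above 0, at 0.13. ATP5PO, and TRAP1 above, are outside the rule for named genes and were chosen for their links to cyclophilin D.

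TSPO was slightly lower with G-TPP. It read 1308 with DMSO and 1174 with G-TPP, a log2 difference of -0.16, within the scatter between probe sets, and 32.6% of genes above the filter were lower. Of its ligand, partners and the linked steroid and haem steps, 7 genes passed the filter with a median of -0.22, 5 of them below 0 and none at 2-fold. TSPOAP1, a binding protein of TSPO, was lowest at -0.29, and FECH, the ferrochelatase that completes haem, was highest at 334.3 with DMSO and 534.2 with G-TPP (0.68). STAR, the steroidogenic acute regulatory protein, and CYP11A1, which makes pregnenolone from cholesterol, were below the filter.

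**Figure D3:**
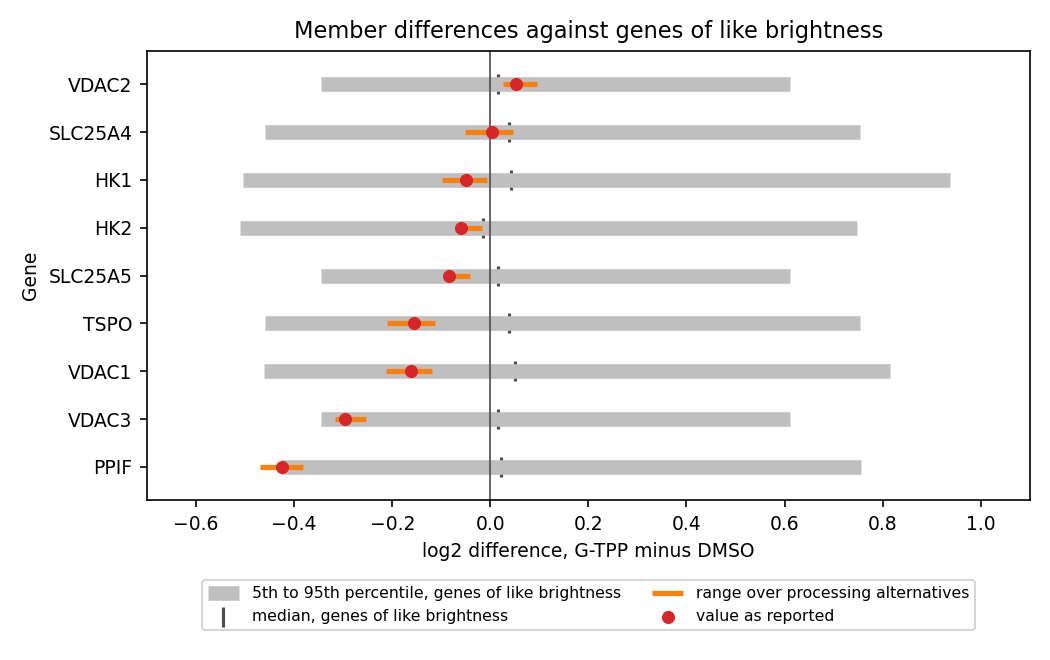
Log2 difference of each of the 9 members (red points) with its range over the processing alternatives (orange), against the 5th to 95th percentile (grey bars) and median (ticks) of genes of like brightness. PPIF (-0.43) sits at the lower end of its grey bar and VDAC3 (-0.30) near the end of its own, and the other 7 lie well inside theirs.

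In order, the members ran from PPIF and VDAC3 through VDAC1, TSPO, SLC25A5, HK2, HK1 and SLC25A4 to VDAC2 by its brighter probe set; by its dimmer one, with a difference of 0, VDAC2 stood just below SLC25A4. No neighbours in this order were further apart than 0.14 on the log2 scale, less than the scatter of 0.17 between probe sets of a gene, so the order of neighbours is not resolved. PPIF lay at the 5th percentile of genes of like brightness (also -0.43), the other 8 lay between the 5th and the 95th percentile of theirs, and 7 of the 9 lay within 0.17 of 0. The exceptions were PPIF and VDAC3. After lowess centring and after quantile normalization 4 members were lower than that scatter, with VDAC1 (-0.18 and -0.21) and TSPO (-0.18 and -0.21) added.

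**Figure D4:**
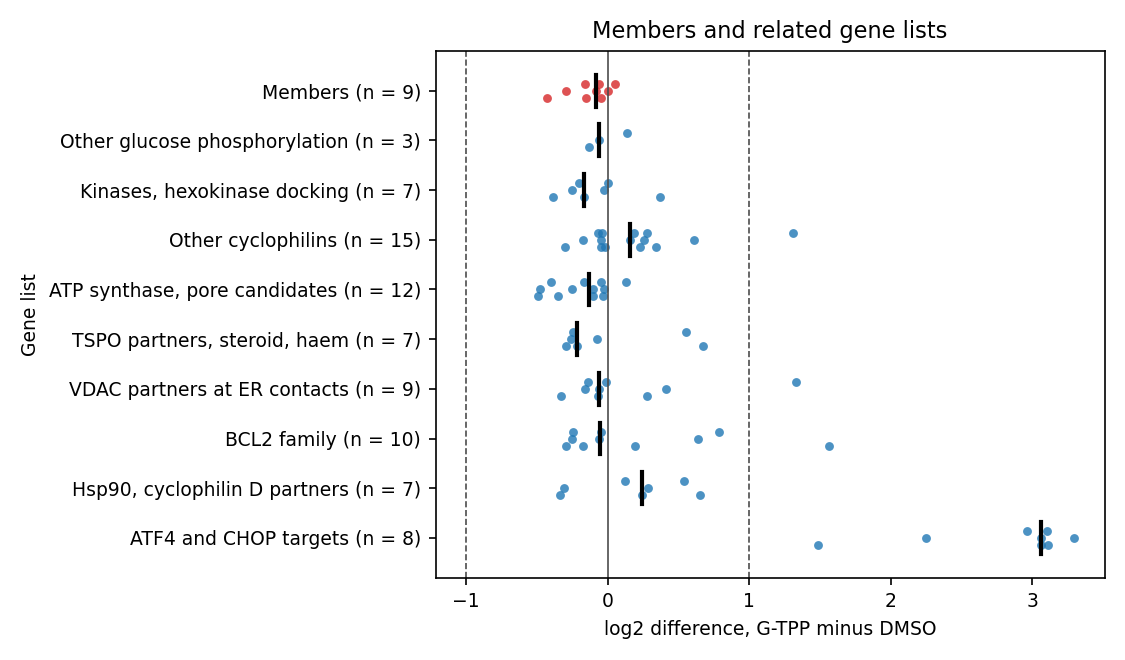
Log2 difference, G-TPP minus DMSO, of the 9 members (red) and of the genes above the filter in each of 9 related lists (blue), with the median of each as a black bar and 2-fold as dashed lines; points are staggered vertically for sight. The members stay within 0.43 of 0, single genes of the cyclophilin, ER contact and BCL2 lists pass 2-fold, and the 8 ATF4 and CHOP targets, chosen as high, lie at 1.49 or above.

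As for the series as a whole, the median intensity was 224.8 with DMSO and 215.5 with G-TPP. Of the glioma and astroglial markers VIM, CD44 and SOX2 were bright, while S100B was below the brightness filter and GFAP lay at 245.2 and 231.5, near the filter value of 239.2. SOX2 was 2.72-fold lower with G-TPP. Some markers of immune, endothelial, liver and epithelial cells (PTPRC, PECAM1, ALB and EPCAM) were below the 95th percentile of olfactory receptor genes in both arrays, but others were not. Of all 24 markers of immune, endothelial, neuronal, blood, liver, epithelial and muscle cells named on the array, 10 passed the brightness filter, the brightest of them the keratin gene KRT8 at 2167 with DMSO and 1809 with G-TPP. The muscle genes ACTA1 (635.4 and 522.2) and DES and the neuronal gene RBFOX3 were also above the filter. So were CD68 (583.7 and 515.5), TYROBP, CLDN5, CDH5, APOA1 and KRT19. None of the 10 reached 2-fold, and their part in the members' values was not tested. The olfactory percentile, a guide to the intensity of genes mostly silent outside the nose, was 174.2 with DMSO and 172.0 with G-TPP, and every member probe set was above it, the dim VDAC2 probe set least so and the others at 3.18 times its level or more.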

How the data were processed

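RNA of U251 cells was run on Affymetrix arrays, 1 for each agent named in the labels. Each deposited value is the linear intensity of a probe set (6.61 to 18995 over both arrays). RMA and Affymetrix Expression Console 1.1.2 are named in the submitters' processing notes as what the authors ran. RMA brings arrays close in distribution, so a change in total RNA is not visible. The deposited values were still not identical in distribution, with medians of 224.8 for DMSO and 215.5 for G-TPP. Further quantile normalization moved VDAC1 from -0.16 to -0.21. Precision is limited by the number of arrays. The genome build and the set of arrays given to RMA are not stated in the labels.

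Probe sets with 1 gene symbol in the platform annotation (19460 of 33297) were named through RefSeq gene IDs; those with several (1754) or unlisted (12083) were left out. The brightest probe set stood for a gene. Genes were kept if the brighter array reached the median of that value over probe sets. Differences are log2 G-TPP minus log2 DMSO with no pseudocount, so residual background pulls dim genes towards 0. Genes of like brightness are those in the same of 20 bins of mean log2 intensity.

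The members and lists were chosen with earlier results of these data known. Named genes are all members and, per related list, genes at 2-fold or else the highest and lowest; the lowest gene is given beside those at 2-fold as well. Exceptions are the ATF4 and CHOP list, where DDIT3 alone is named, the genes TRAP1 and ATP5PO, and genes said to lie below the filter. The size rule was tested on simulated data. Alternatives covered thresholds, filters, centring, quantile normalization, probe set choice and a pseudocount of 16. Tools were Python 3.11.15, pandas 2.3.3 with numpy 2.4.6, statsmodels 0.14.6 (lowess, span 0.3) and, for plots, matplotlib 3.10.9.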

Additional observations from a re-analysis of the deposited data

How the results depend on the processing

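No member reached 2-fold under any alternative run, nor 1.5-fold. Of 112 recomputed values 110 stayed close to those reported: log2 differences within 0.17 and counts within 1.5 times. The exceptions were the counts of all genes, 1173 at a threshold of 1.5-fold and 104 at 3-fold, against 371 at 2-fold. Much of this tally was fixed in advance and is no measure of robustness. Filters and the choice of probe set cannot change the difference of a gene with 1 probe set. The tolerance of 0.17 is also wider than the reported difference of 7 of the 9 members. Over all alternatives PPIF ranged from -0.47 to -0.38 and VDAC3 from -0.32 to -0.25 on the log2 scale. VDAC2 stayed above 0, but every alternative read its bright probe set, alone or averaged with the dim one at 0. That bright probe set is the one numbered among chromosome 2 genes. SLC25A4 ranged from -0.05 to 0.05. Setting the median of all genes to 0 shifted every difference up by 0.04. HK2 has no value at the 75th percentile filter, being dimmer than it. No paired analysis was possible because each condition has 1 array, and for the same reason no replicate could be left out. Signal over background limits the dim VDAC2 probe set most.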
